A study of Flechtneria rotunda with 10 samples.

Results

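The genes described here are those of the desert green alga Flechtneria rotunda that stood highest while drops of its culture were drying but still liquid. They were chosen by the authors' normalised signal, with 3 requirements. The mean of the 2 late-desiccation libraries had to be at least 5. The lower late value had to be at least 2 times the highest of the 8 other libraries. A rounded count above 0 was needed in at least 1 of those 8. Of 17148 assembled genes, 140 met both signal criteria and 11 of these had no count outside the late libraries, which left 129 genes. The rule allowed up to 200, so none was dropped. The late peak of these genes is therefore a matter of choice and is given as a description, with no test.

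The 10 RNA-seq libraries were of strain SEV3VF49, grown for 6 weeks in flasks with 150 mL of medium and placed as drops of 40 µL on a cover glass. Each of 5 stages had 2 libraries: hydrated drops at the start, early desiccation at 2.5 h with 25% of the volume gone, late desiccation at 7.5 h with 60% gone, dry drops at about 24 h after 11 h flat in the chamber, and drops 1 h after rehydration. All stages share the strain and no untreated time course was sampled beside them, so hours elapsed and water lost cannot be told apart. Whether both libraries of a stage were grown apart is not in the labels, and the p-values rest on library-to-library variation that could be technical.

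Green algae of desert crusts survive the loss of nearly all cell water and resume growth when wetted. As the medium around a cell concentrates, desiccation-tolerant algae and plants are known to take up or make compatible solutes, to make late embryogenesis abundant proteins and chaperones that keep other proteins from clumping, and to lower the light energy that reaches photosynthesis. Much of this preparation has to be done before the cell is dry, since a dry cell no longer transcribes or translates. Which of these processes the 129 genes belong to is not known here. They carry only the identifiers of a transcript assembly, and the files pair none of them with a name, a function or a genome position.

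The late libraries stood apart from the rest in depth and in the number of genes with reads. They held 3561519 and 5409194 counts, while the others held 1696650 to 2923434. Thinned to 1696650 counts each, the late libraries still had reads in 16021 and 16353 genes. The range elsewhere was then 10456 to 13478. Both features move with the stage that chose these genes, and their part in the late peak was not tested. At the thinned depth the late counts were at least 2 times the highest other count in 124 of the 129 genes. These are the values the rule used, and nothing is read from that number.

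As a group, the late-peaking genes took up a far larger part of the library at late desiccation, 2.48% ± 0.236 (SD, n = 2), than at any other stage, where the highest mean was 0.283% ± 0.0257 (SD, n = 2). They held 2.31% and 2.65% of all counts in the late libraries. In the hydrated libraries they held 0.265% and 0.302%, and in the early ones 0.248% and 0.254%. After full drying the share was 0.186% and 0.187%, and after rehydration it was 0.217% and 0.158%. These are shares of library totals, without the TMM scaling factors used in the fits below. Those factors were 0.529 and 0.645 in dry, 1.33 and 1.48 in late and 0.976 and 1.08 in hydrated libraries. With them, the members' median log2 fold change of dry against hydrated drops was 0.09, so the lower dry share depends on the scaling. No library outside the late stage came near the late share. The 2 late libraries differed from each other by far less than either did from the rest. The rule chose each member for this contrast, so both are descriptions and nothing is read from them. In bulk RNA, fewer cells with a transcript and less of it per cell cannot be told apart.

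**Figure D1:**
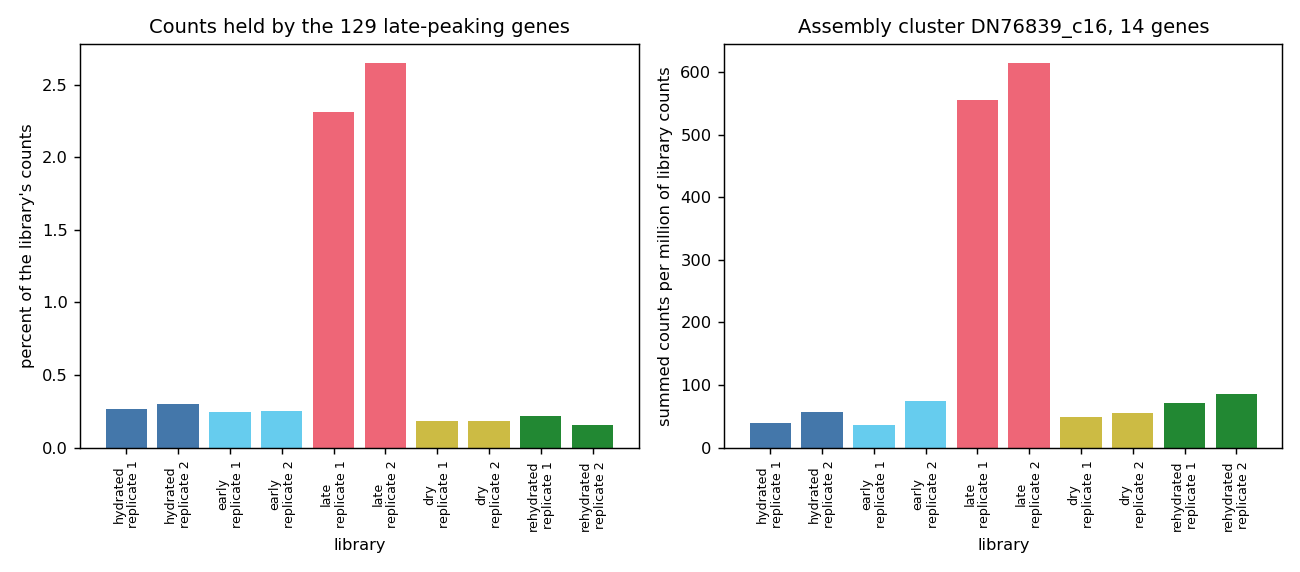
Left, percent of each library's counts (vertical axis) held by the 129 late-peaking genes, 1 bar per library (horizontal axis). Right, CPM (counts scaled to the library total, without TMM factors) summed over the 14 genes of assembly cluster DN76839_c16. Both late bars stand at 2.31% and 2.65% on the left and at 555 and 614 on the right, above every other library.

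The typical member was a modestly expressed gene that became an abundant one. Its signal, which is scaled for gene length and library, had a median of 55.4 and 57.9 over the members in the late libraries. In the hydrated libraries the medians were 5.90 and 6.33, in the early 3.21 and 3.96, in the dry 3.99 and 4.37, and in the rehydrated 7.88 and 4.81. The median member's late level lay above that of 95.8% of all genes. Stage means of single members ran from 5.07 to 2229 at late desiccation, with 112 members at 10 or more and 33 at 100 or more.

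**Figure D2:**
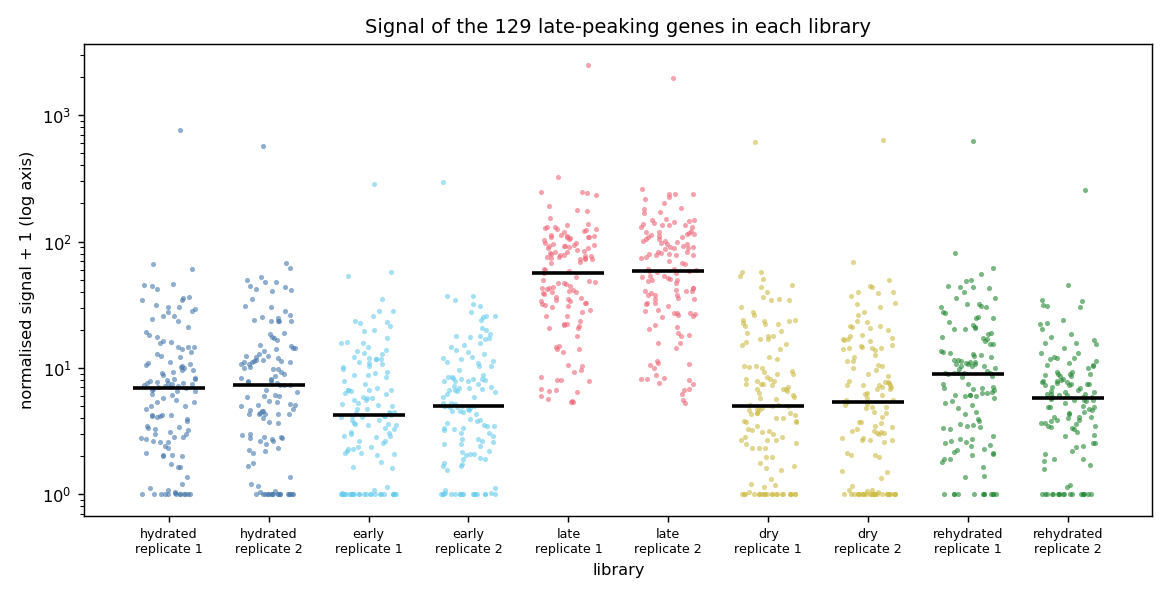
Normalised signal plus 1 (log axis) of each of the 129 late-peaking genes (points) in the 10 libraries, coloured by stage, with the median as a bar. The late medians are 55.4 and 57.9 before the 1 is added, and the medians of the other libraries lie between 3.21 and 7.88.

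The height of the peak varied widely among members. The lower late value was a median of 3.69 times the highest other value (quartiles 2.50 to 5.83). This ratio was under 4 in 68 members, between 4 and 8 in 46, between 8 and 16 in 13, and above 16 in 2. Near the threshold, the last gene inside had a lower late signal of 6.82 against 3.37 elsewhere, and the first outside had 17.3 against 8.64. A further 81 genes of sufficient level had ratios between 1.5 and 2, so the edge of the group is a cut through a continuous range. With late replicate 1 alone 160 genes met the rule, and with late replicate 2 alone 210 did.

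**Figure D3:**
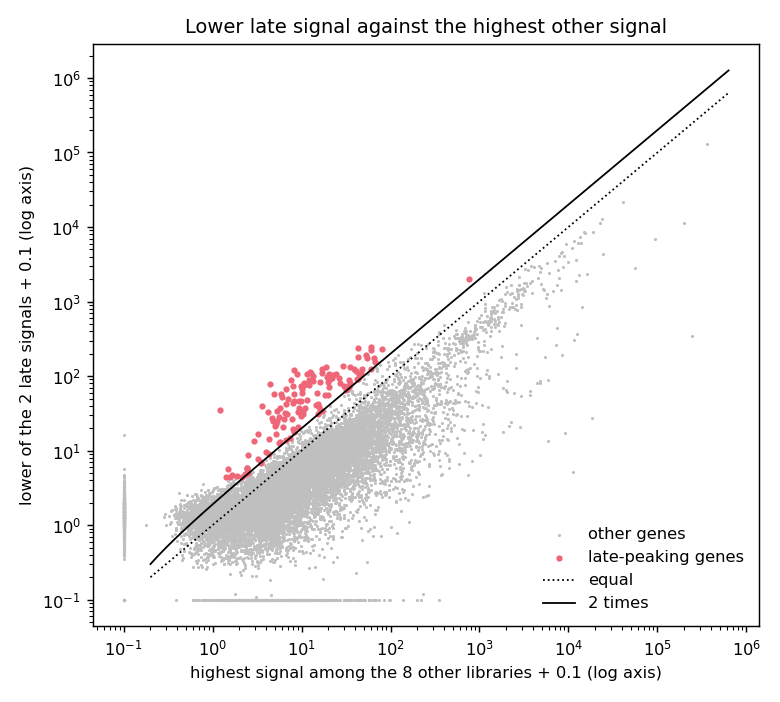
Each gene's lower late signal (vertical, log axis) against its highest signal in the 8 other libraries (horizontal, log axis), both plus 0.1, with lines for equality and for 2 times. The 129 late-peaking genes (red) lie above the line for 2 times at ratios of 2.02 to 31.1, next to a dense field of other genes (grey).

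Signals of these genes were close in both late libraries, which the rule favours, since it needs both late values to be high. Their signals in the 2 late libraries correlated across members at 0.971 (Spearman, 129 genes of the same 2 libraries, given as a description). Over all genes at a mean late signal of 5 or more it was 0.867. In 112 members (86.8%) the late values lay within 1.5-fold of each other, against 83.3% of all genes at a mean late signal of 5 or more. Within other stages the same correlation over members was 0.796 in hydrated, 0.737 in early, 0.787 in dry and 0.683 in rehydrated libraries, where counts were far lower. A member had a median of 634 counts over both late libraries together and of 114 over the 8 others. Of the 129, 27 had under 100 late counts in all, and 20 had 10 or fewer counts elsewhere.

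The order of members at late desiccation resembled their order at the other stages, which the rule sets in part, since it caps every other value by the lower late one. Stage means correlated with the late mean across members at 0.809 in hydrated, 0.706 in early, 0.744 in dry and 0.807 in rehydrated drops (Spearman, 129 genes, a description). Outside the late stage the median member stood at 12.3% of its late level in hydrated, 7.86% in early, 10.2% in dry and 12.1% in rehydrated drops. Reads were found in all 10 libraries for 75 members (58.1%), against 51.0% of all genes. Both libraries of a stage were at 0 counts for 6 members in hydrated, 13 in early, 17 in dry and 7 in rehydrated drops.

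The member with the highest late signal was TRINITY_DN53036_c2_g4. Its signal was 759 and 571 in hydrated, 286 and 296 in early, 2476 and 1982 in late, 614 and 641 in dry and 627 and 253 in rehydrated libraries. It was high in every library, and its mean of 2229 at late desiccation stood beside 665 in hydrated drops, with no overlap between the late libraries and the rest. These signals rest on only 378 and 529 late counts. In CPM with TMM factors, the gene had 80.8 and 67.0 in late against 44.7 and 40.0 in dry libraries. Its lower late value was thus under 2 times the dry ones on that scale. The fitted log2 fold change of late against dry drops was 0.80 (SE 0.30, a description). The gene is very short, with a relative length of 0.0337. Relative length is the ratio of count to signal, set to the median gene of the library.

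The widest margin belonged to TRINITY_DN7586_c0_g2, which had almost no reads outside the late stage. It had 114 and 163 counts in the late libraries, 2 counts in hydrated replicate 1 and 0 in every other library. Its signal was 39.2 and 34.6 at late desiccation and 1.11 in that hydrated library. A gene of this kind passed the requirement for reads elsewhere by those 2 counts alone. Its cluster partner, TRINITY_DN7586_c0_g1, had 9 and 73 late counts and 0 to 7 in each other library. The member held 6.45% of the pair's counts outside the late stage and 77.2% within it. For the pair, the lower late signal was 8.93 times the highest other, against 31.1 times for the member alone.

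The largest number of reads went to TRINITY_DN46094_c0_g1, a very long assembled gene (relative length 8.76), singled out after its values were seen. It alone held 14.2% and 14.7% of the members' counts in the late libraries. Its counts were 11692 and 21010 there, against 317 to 1130 in the other libraries. Its signal was 202.7 ± 16.8 at late desiccation, against 24.9 ± 3.52 in hydrated, 21.5 ± 7.86 in early, 45.4 ± 9.76 in dry and 28.7 ± 19.7 in rehydrated drops (SD, n = 2 each). The late libraries lay above all others, and the remaining stages overlapped in part.

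Fitted from the counts, the peak had a similar size against each other stage. These fold changes repeat the contrast that chose the genes and carry no test. Of the 129 members, 120 had enough counts to be fitted, 34 of them only through the late libraries. The median log2 fold change of late desiccation was 2.96 against hydrated, 3.67 against early, 2.95 against dry and 2.89 against rehydrated drops. Over all 10467 fitted genes the same medians were 0.04, 0.01, 0.29 and 0.11. The rise from early desiccation was thus the steepest at the median, with 82 of 120 members at 8-fold or more, against 57 from hydrated. On the count scale with TMM factors, both late values exceeded every other library in 128 of 129 members and were at least 2 times the highest in 112.

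The first comparison between stages other than late desiccation asked whether members had begun to move at early desiccation. The rule did not compare these stages with each other. It did cap every value in them by the lower late one, so the choice of genes was not free of them. The fitted levels of most members at 2.5 h lay below those at the start. Of 120 tested members, 94 (78.3%) had a fitted level below hydrated, against 50.1% of all tested genes. The median log2 fold change was -0.73 (quartiles -1.24 to -0.19), beside 0.00 over all tested genes. In 59 of the 129 members both early signals lay below both hydrated signals, which is 45.7%, against 22.1% of all genes. In 11 members they lay above, 8.53% against 22.8%. Of the 120 tested members, 34 passed the filter on counts only through the late libraries. In a fit without those libraries, 86 members were tested, with a median of -0.70.

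Few of these early differences passed the test gene by gene. By edgeR's quasi-likelihood test with Benjamini-Hochberg adjustment at 0.05, 12 members fell (10% of those tested, beside 6.16% of all tested genes) and 5 rose (4.17%, beside 5.05%). The median log2 fold change was -1.39 among the 12 and 3.20 among the 5. In the fit without late libraries, 6 of 86 members fell (6.98%, beside 5.86% of all genes in that fit) and 3 rose (3.49%, beside 4.19%). The shares called were thus close to those of all genes. With libraries scaled by their totals alone, 2 fell and 6 rose. That scaling moved the median of all tested genes to 0.42, and the members' median, at -0.31, lay as far below it as before. The total of 17 was 7 and 6 without hydrated replicate 1 or 2, 4 and 7 without early replicate 1 or 2, and 26 without either rehydrated library.

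TRINITY_DN72594_c0_g1 showed the steepest early rise under the rule for named genes. It had 1 and 0 counts in hydrated, 24 and 13 in early, 78 and 119 in late, 8 and 6 in dry, and 8 and 8 in rehydrated libraries. Early desiccation was 30.8 times hydrated by summed counts, with a 95% counting interval of 5.20 to 1250 (edgeR adjusted p = 0.00395). It was also the steepest rise in dry against hydrated, at 31.3 times with an interval of 4.76 to 1322 (edgeR adjusted p = 0.00129). Once on, this gene stayed above its starting level at each later stage.

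The steepest early fall was that of TRINITY_DN36044_c0_g2. It had 75 and 60 counts in hydrated, 0 and 0 in early, 307 and 447 in late, 13 and 0 in dry, and 39 and 0 in rehydrated libraries. Early desiccation was at least 54.0-fold lower than hydrated, with 3 counts over the stage as the floor (edgeR adjusted p = 0.0130). The call was lost without hydrated replicate 1 or without either early library, at edgeR adjusted p of 0.0516 to 0.0773. It was also lost in limma, and the adjusted p ran from 2.11e-05 to 0.205 over all alternatives. This gene shares its assembly cluster with another member, TRINITY_DN36044_c0_g1, which had 36 and 35 counts at early desiccation. Summed over both, the cluster had 148 and 101 counts in hydrated, 36 and 35 in early, 1447 and 2502 in late, 16 and 21 in dry, and 78 and 42 in rehydrated libraries. The sum was lower in early than in hydrated libraries and highest in late ones, and was not tested.

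**Figure D4:**
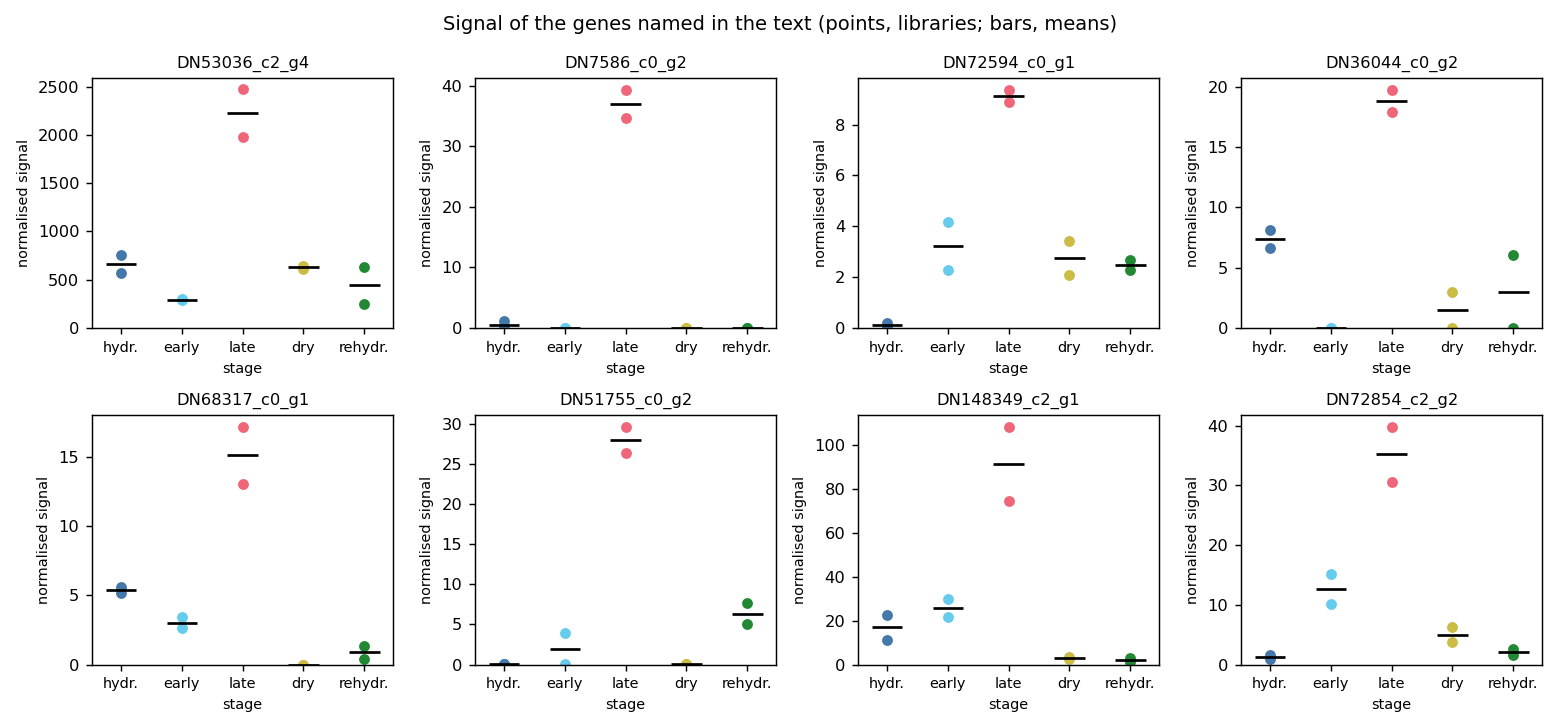
Normalised signal (vertical axis, from 0) of the 8 genes named by rule at the 5 stages (horizontal axis), with 1 point per library and a bar at the mean of 2. All peak at late desiccation, from 9.12 in DN72594_c0_g1 to 2229 in DN53036_c2_g4, and differ in where they stand at the other stages.

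After full drying, members stood on both sides of their starting level. In dry against hydrated drops, 11 members rose (9.17% of those tested, beside 22.7% of all tested genes) and 13 fell (10.8%, beside 22.3%). The members' median log2 fold change was 0.09 (quartiles -0.96 to 0.67), and that of all tested genes -0.28 (quartiles -1.47 to 0.92). Changed members thus made up 20.0% of those tested, against 45.0% of all genes. Members had few counts outside the late stage, and the rule capped their values in dry and hydrated drops. How much either lowered their count of calls was not tested. In a fit without both late libraries, 18 of 86 members with enough counts were called (20.9%), while 46.2% of all genes in that fit were. By library totals alone 6 rose and 34 fell, with the median of all tested genes at -1.07 and that of members at -0.68. Those 2 counts lack the share of all genes and are not read as a result about the members. The total of 24 was 15 without hydrated replicate 2, and 14 and 12 without dry replicate 1 or 2.

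TRINITY_DN68317_c0_g1 lost all reads in dry drops. It had 21 and 19 counts in hydrated, 15 and 11 in early, 79 and 172 in late, 0 and 0 in dry, and 1 and 3 in rehydrated libraries. Dry drops were at least 5.97-fold below hydrated, at the floor of 3 counts over the stage (edgeR adjusted p = 0.000836). Its late libraries lay above all others, and both rehydrated libraries below both hydrated ones.

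Rehydrated drops gave a similar count of changed members. Against hydrated, 12 members rose (10%, beside 22% of all tested genes) and 11 fell (9.17%, beside 20.2%). In the fit without late libraries, 8 of 86 members rose (9.30%, beside 22.6% of all genes in that fit) and 10 fell (11.6%, beside 20.2%). With all libraries, the members' median log2 fold change was -0.03, beside -0.09 over all tested genes. The 2 rehydrated libraries differed over these genes. Of the 129 members, 47 had their highest signal outside the late stage in rehydrated replicate 1 and 8 had it in replicate 2. The same count over all genes was not made. The median signal over all genes was 2.56 in rehydrated replicate 1 and 2.38 in replicate 2. Whether the difference is particular to the members was not tested. By library totals alone 8 rose and 15 fell. The shares of all genes under that scaling are not set beside these counts, and nothing about the members is read from them. The difference between the members' median and that of all tested genes was -0.42 without rehydrated replicate 1 and 0.33 without replicate 2. The total of 23 was 14 without hydrated replicate 1.

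TRINITY_DN51755_c0_g2 was the steepest rise over hydrated. Its rounded counts were 0 and 0 in hydrated, 0 and 19 in early, 211 and 302 in late, 0 and 0 in dry, and 23 and 13 in rehydrated libraries. With the floor of 3 counts over the stage, rehydrated drops were at least 18.1-fold higher (edgeR adjusted p = 0.00588). DESeq2 gave an adjusted p of 0.0521, the highest of all alternatives, and the lowest was 0.00015. The early libraries differed, with a rounded count above 0 in 1 of the 2. The rise was not seen in the sum with its cluster partner, TRINITY_DN51755_c0_g1. That partner had 8 and 23 counts in hydrated and 0 and 0 in rehydrated libraries. Summed, the pair had 8 and 23 counts in hydrated against 23 and 13 in rehydrated libraries, with signals of 1.87 and 5.50 against 7.64 and 5.05. These sums overlapped.

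TRINITY_DN148349_c2_g1 was the steepest fall below hydrated. It had 43 and 83 counts in hydrated, 95 and 128 in early, 465 and 1090 in late, 6 and 6 in dry, and 3 and 7 in rehydrated libraries. The log2 fold change was -3.04 in rehydrated (SE 0.52, edgeR adjusted p = 0.000519) and -2.22 in dry drops (SE 0.51, edgeR adjusted p = 0.00365), both against hydrated. Its libraries did not overlap in either comparison.

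Few members differed between dry drops and drops 1 h after water was added. In rehydrated against dry drops, 0 members rose (beside 2.73% of all tested genes) and 1 fell (0.833%, beside 2.39%) by edgeR. In the fit without late libraries, 0 of 86 members were called, beside 2.90% of all genes in that fit. DESeq2 called 2 higher and 1 lower, and limma on the signal called between 1 and 3 higher and 0 lower. The gene that fell was TRINITY_DN72854_c2_g2, with 14 and 22 counts in hydrated, 241 and 159 in early, 714 and 1485 in late, 24 and 50 in dry, and 16 and 22 in rehydrated libraries. Its log2 fold change from dry was -1.49 (SE 0.39, edgeR adjusted p = 0.0498), and leaving out any 1 of the 10 libraries ended the call, at edgeR adjusted p of 0.062 to 0.229. Over all members, the difference between their median and that of all tested genes was -0.45 without rehydrated replicate 1 and 0.22 without replicate 2. By library totals 3 were higher and 0 lower. The counts by DESeq2, limma and library totals lack the share of all genes, and nothing about the members is read from them. TRINITY_DN72854_c2_g2 had risen at early desiccation (log2 fold change 3.20, SE 0.37, edgeR adjusted p = 0.000515).

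Over the 4 comparisons, 81 of the 120 tested members (67.5%) were called in none, beside 42.1% of all tested genes. The most frequent pattern among the other 39 was a fall at early desiccation alone, in 8 members (6.67%, beside 0.955% of all tested genes). A further 7 were below hydrated both dry and rehydrated (5.83%, beside 10.1%), and 4 were above it at both (3.33%, beside 13.8%). Another 3 were above hydrated at early desiccation, dry and rehydrated (2.5%, beside 1.72%), and 3 were below it at all of these (2.5%, beside 3.60%). Of the 120, 34 passed the filter on counts only through the late libraries, and the patterns were not counted without them. In the fit without late libraries, 6 of 86 members fell at early desiccation (6.98%, beside 5.86% of all genes in that fit). No pattern share is therefore read as a result about the members. The rule also capped members' values at the compared stages. These shares were not tested. The comparisons share the hydrated and dry libraries, so these patterns are not independent of each other.

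**Figure D5:**
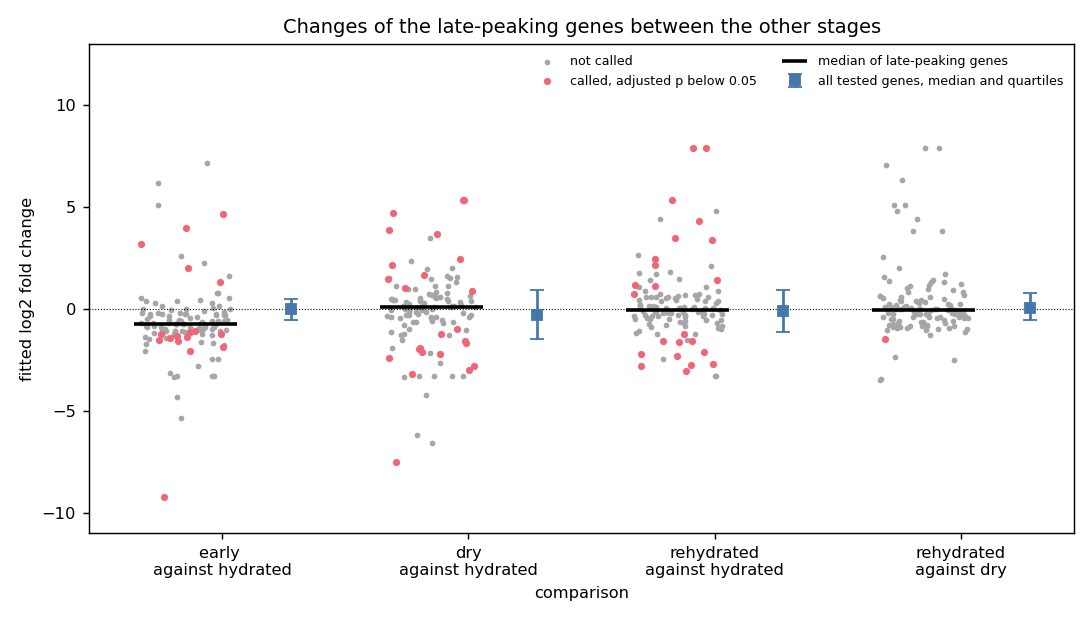
Fitted log2 fold changes (vertical axis) of the 120 tested late-peaking genes in 4 comparisons between stages other than late desiccation (horizontal axis). Red points passed an adjusted p of 0.05, black bars are members' medians and blue squares with bars are the median and quartiles of all tested genes. Members' medians are -0.73, 0.09, -0.03 and -0.05 from left to right.

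Some features of the assembly that the rule did not use were more frequent among the late-peaking genes than among all genes. A common cluster part in the identifier marks genes assembled from overlapping reads, often copies or variants of a sequence. It was shared with another gene of the table in 53 members (41.1%), against 26.8% of all genes. Values that are not whole, left where reads were divided between similar sequences, occurred in some library for 61 members (47.3%), against 24.2%. Members also had more counts, a median of 634 in the late libraries alone, against 119 over all 10 libraries for all genes. How far this raised their share was not tested. Relative length had a median of 1.01 (quartiles 0.337 to 1.5), against 0.799 (quartiles 0.499 to 1.24) over all genes. Very short genes, under 0.1, made up 10.1% of members and 1.42% of all genes, and long ones, over 2, made up 14.0% and 7.10%. These shares are descriptions without a test, and a single read adds more signal to a short gene.

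The same rule applied to another stage gave 243 genes for hydrated, 36 for early, 54 for dry and 63 for rehydrated drops. A shared cluster was found in 29.2%, 36.1%, 48.1% and 41.3% of these, in that order. Values that are not whole occurred in 28.4%, 30.6%, 48.1% and 39.7%. Genes under 0.1 in relative length made up 0.412%, 2.78%, 15.4% and 0% of those with a length. Genes over 2 made up 9.47%, 13.9%, 3.85% and 19.0%, and the median relative length was 1.03, 1.02, 0.405 and 1.10. Several of these values were thus close to those of the late-peaking genes. The median ratio of the lower peak value to the highest other was 2.57, 2.26, 2.22 and 2.33, below the 3.69 of the late-peaking genes. Median counts in the peak stage were 212, 169, 70.5 and 171, against 634 in the late-peaking genes, whose stage was also the deepest. Differences between these groups were not tested.

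Several late-peaking genes were neighbours in the assembly. The 129 members fell into 110 clusters, of which 10 held more than 1 member, 29 members in all. The largest was TRINITY_DN76839_c16, singled out after its values were seen, with 9 members among its 14 genes in the table. All 14 had both late signals above every other library. Summed over the cluster, the level was 555 and 614 CPM (counts scaled to the library total) in the late libraries and 36.6 to 86.1 in the others. Most of its reads belonged to TRINITY_DN76839_c16_g21, with 1306 and 2201 late counts and 76 to 125 in each other library. The rest were short pieces, down to a relative length of 0.0125. These members share sequence and cannot be taken as 9 separate observations.

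In other clusters, partners of nearly equal length held the reads in turn. TRINITY_DN36310_c0 held 2 members of relative length 1.62 and 1.61. The first had 20 and 1 counts in the early libraries and 35 and 1 in the rehydrated, and the second had 0 and 13, and 0 and 11. Their sums, 20 and 14 in early and 35 and 12 in rehydrated libraries, varied far less than either partner. Among members with at least 10 counts in some library outside the late stage, 12 of 92 (13%) had 10 or more in 1 library of a stage and 0 in the other. This was so in 3.40% of all genes with such counts. All 12 belonged to the 36 such members that share a cluster, and none to the 56 that do not. Members share a cluster more often than all genes do (41.1% against 26.8%). The same split over all genes was not made, so whether the 13% is particular to the members was not tested. Values of a single member of a cluster outside the late stage are uncertain, those of TRINITY_DN36044_c0_g2 and TRINITY_DN51755_c0_g2 included.

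Of the 34 clusters with more than 1 gene in the table, 7 held members only, and their sums peak at late desiccation by the rule. In the 27 that also held other genes, the summed signal of both late libraries exceeded every other library in 25, and was at least 2 times the highest in 21. The members in these sums were chosen for their late peak, so this is a description. Outside the members the clusters held 36 genes. Of those, 18 (50%) had both late signals above all others, against 19.3% of all genes, and 3 had reads in late libraries only.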

How the data were processed

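RNA sequencing libraries of 10 samples were compared. The deposited counts are expected counts per assembled gene, taken as not normalised because their totals differ. The second deposited table holds a signal that the authors scaled by TMM, per its name, with column sums from 644523 to 1935890. Named in the submitters' processing notes, without roles, are RSEM 1.2.28, Bowtie2 2.2, Trimmomatic 0.35, CASAVA 1.4 and also DESeq2. Per the labels' protocols the library kit removed ribosomal RNA with 105 custom oligos among others. The test by which the genes in the tables were chosen as differentially expressed is not given in the sources used here.

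Counts were rounded. The filterByExpr function, at a total of 15 or more and a count of 10 or more, kept 10467 genes. All 10 libraries and 5 stages entered 1 quasi-likelihood model with TMM factors and no covariate, in edgeR 4.0.16 under R 4.3.3. Comparisons were two-sided, with Benjamini-Hochberg adjustment over all tested genes. Relative length is the median over libraries with at least 5 counts of count over signal, divided by each library's median. The genes, lists and rules were chosen with earlier results of these data known. Named genes were the member with the highest late signal, that with the widest margin, and in each of 4 comparisons the called member with the largest rise and fall. Those last had to reach 5 CPM on the higher side without overlapping libraries. Counting intervals and floors cover counting error only. Alternatives were other scalings and filters, DESeq2 1.42.0, limma 3.58.1 on log2 signal with pseudocounts of 1 and 0.1, a replicate block, subsets of stages and leaving out each library. Thinning to the smallest total in the tests was added after the data were seen.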

Additional observations from a re-analysis of the deposited data

How the results depend on the processing

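The count of members called at early desiccation (17) was 8 by library totals, 4, 5 and 4 by limma (pseudocount 1, 0.1, and 1 with a mean of at least 1), 9 without both late libraries and 31 with only the compared stages. In dry against hydrated (24) it was 40 by library totals. In rehydrated against hydrated (23) it was 13 by DESeq2, 15 by limma with a pseudocount of 0.1 and 13 with only the compared stages. In rehydrated against dry (1) it was 3 by library totals, 2 with no filter, 3 by DESeq2, 3 by limma with a pseudocount of 0.1, 3 by limma with a mean of at least 1, and 0 without both late libraries or with only the compared stages. The cause was not tested. All counts of called members in this section are given without the shares of all genes under the same settings. They are not read as a result about the members. Leaving out each library in turn gave 4 to 26, 12 to 30, 14 to 31 and 0 to 9 calls in the order above. The members' median at early desiccation lay below that of all tested genes under all 22 alternatives, by -0.56 to -0.74. In rehydrated against hydrated the same difference was -0.42 without rehydrated replicate 1 and 0.33 without replicate 2. The number of genes meeting the rule was 61 at a minimum ratio of 4 and 615 at a minimum late signal of 1, and with 1 late library it was 160 to 210. Deviations of same-numbered libraries correlated at 0.000422 to 0.141 over stage pairs. Whether same-numbered libraries were paired is not in the labels, and these correlations cannot decide it. A replicate block gave 18, 25, 25 and 1 calls. Thinning all libraries to 1696650 counts, chosen after the data were seen, gave 3 higher and 12 lower, 6 and 11, 7 and 11, and 0 and 1 in the same order. Of named-gene values, 130 stayed past the threshold and 23 did not, none turning direction. Members had a median of 114 counts over the 8 other libraries.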

Other observations

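In a few clusters the late-peaking gene had neighbours that behaved otherwise. TRINITY_DN53036_c2_g4, the member with the highest late signal, held 0.638% of its cluster's counts at late desiccation and 0.166% elsewhere. The summed signal of that cluster was 5610 and 4985 in the late libraries, within the 2575 to 5740 of the others. TRINITY_DN74136_c0 peaked in dry drops as a whole, with a summed signal of 113 and 98.3 there against 37.6 and 28.8 at late desiccation. Its late-peaking member had 12.7% of the cluster's counts at late desiccation and 1.62% elsewhere. In TRINITY_DN52743_c1 the member took 64.5% of the counts at late desiccation and 13.6% elsewhere. A neighbour, TRINITY_DN52743_c1_g3, had a signal of 49.3 and 37.1 in late libraries against 43.9 to 142 in the others. These clusters were singled out after their values were seen.

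The 11 genes that met both signal criteria but had no count outside the late libraries were weaker than the members. Their mean late signal had a median of 5.69 (5.02 to 20.5), on a median of 13 counts over both late libraries (10 to 245).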
